A study of Mus musculus with 121 samples.

Results

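In the livers of mice fed the Alios diet, 33 genes differed between Pepd knockout (KO) and heterozygous (HET) animals, 12 of them higher and 21 lower in KO. The drug-metabolizing cytochromes P450 Cyp2b10 and Cyp2c29 stood highest above HET, about 29.8-fold and 5.16-fold. Pepd itself, the serpin Serpinb8, the carriers Slc16a5 and Slco1a4 and the matrix protein Postn were among the genes that fell. The comparison took every liver library labelled Alios and KO (8 mice) or Alios and HET (5 mice), 13 of the 121 samples of the series.

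Mice were of the C57BL/6 strain. KO animals lack, and HET animals carry in a single copy, a gene that the labels write as PEP; what is known of the study makes this Pepd. Both groups ate the Alios diet from 8 weeks of age for 18 weeks. The labels do not say what the diet holds, what sex the mice were or how the allele was made. As a background fact, Alios denotes a diet rich in trans fat, given with sugar in the drinking water, that is used to produce fatty liver in mice. Wild-type (WT) mice on Alios (6) are given beside the comparison. So are mice on the Control diet (1 KO, 4 HET) and on a high-fat diet (HFD, 9 KO and 11 HET). WT mice on Control and on HFD, and KO, HET and WT mice on chow, are not shown. They enter the fits: Control WT that of Alios, HFD WT and chow that of HFD, where they help to estimate the spread between mice. Each library was 1 labelled mouse.

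Prolidase, the product of Pepd, splits dipeptides that end in proline or hydroxyproline, many of which come from collagen. Cytochromes P450 of the 2b and 2c families oxidize drugs, steroids and fatty acids in hepatocytes. Cyp2b10 and Cyp2c29 are textbook targets of the constitutive androstane receptor, the product of Nr1i3, which binds paired AGGTCA-like hexamers. Slco1a4 and its relatives carry bile acids and organic anions across the cell membrane.

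Total counts were 1912375 to 6422093 in KO libraries 1 to 7 and 1120807 to 6234727 in the HET libraries. KO library 8 held 42692 counts, so 1 read there equals 21.3 CPM (counts scaled to library size), and its levels are given apart as read counts. Hepatocyte markers summed to 110127 to 139202 CPM in KO 1 to 7 and 97720 to 136698 CPM in HET. Y-linked Ddx3y had 75.7 to 98.8 CPM in KO 1 to 7, 5 reads in KO 8 and 84.4 to 91.6 CPM in HET. Another pair of libraries stood apart. KO 2 had 781 CPM of skeletal muscle markers, against 1.16 to 3.47 in the others of KO 1 to 7 and 0.760 to 6.72 in HET libraries. It also had 317 CPM of B and plasma cell markers, against 46.1 to 115 in the others of KO 1 to 7 and 25.9 to 54.9 in HET libraries. Markers of lipid-associated macrophages summed to 96.0 to 188 CPM in KO 1 to 7 and 119 to 170 CPM in the other HET libraries, and to 503.01 CPM in HET 4. Cholangiocyte markers summed to 60.9 to 96.3 CPM in KO 1 to 7 and 64.3 to 87.3 CPM in the other HET libraries, and to 364 CPM in HET 4.

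**Figure D1:**
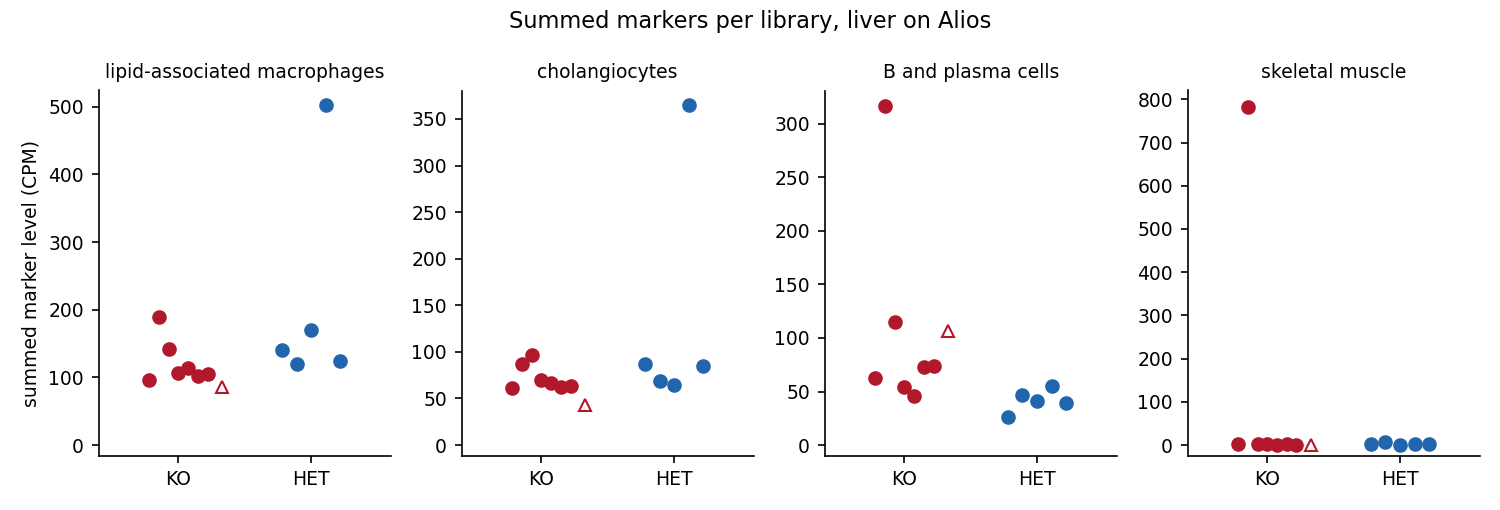
Summed CPM of marker genes in each KO and HET library, in 4 panels for lipid-associated macrophages, cholangiocytes, B and plasma cells and skeletal muscle; points are libraries and the open triangle is KO 8. HET 4 lies at 503.01 and 364 CPM in the first 2 panels, and KO 2 at 317 and 781 CPM in the last 2.

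Most of the excess of HET 4 in both sets came from Spp1, an osteopontin gene that both sets hold, with 31.9 to 69.6 CPM in KO 1 to 7 and 340 CPM in HET 4. The part of these libraries in each result was not tested; values without them stand beside the results they touch. In whole liver, fewer cells of a type and less RNA per cell cannot be told apart.

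The start regions of the pair of cytochromes that rose most are shown because both rose together, with Cyp2b9 as the neighbouring gene of the 2b cluster that did not. Each is 250 bases before to 50 bases after the start site in RefSeq (GRCm38.p6), 5′ to 3′, with capitals where an AGGTCA or AGTTCA hexamer lies on either strand. The windows are chr7:25897408-25897707 for Cyp2b10, chr7:26173159-26173458 for Cyp2b9 and chr19:39286835-39287134 for Cyp2c29, all on the plus strand.
Cyp2b10: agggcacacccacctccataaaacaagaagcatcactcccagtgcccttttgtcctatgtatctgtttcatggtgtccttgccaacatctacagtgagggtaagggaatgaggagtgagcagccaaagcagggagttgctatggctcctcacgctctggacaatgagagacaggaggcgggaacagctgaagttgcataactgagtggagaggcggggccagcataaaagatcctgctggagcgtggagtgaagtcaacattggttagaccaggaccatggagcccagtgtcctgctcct
Cyp2b9: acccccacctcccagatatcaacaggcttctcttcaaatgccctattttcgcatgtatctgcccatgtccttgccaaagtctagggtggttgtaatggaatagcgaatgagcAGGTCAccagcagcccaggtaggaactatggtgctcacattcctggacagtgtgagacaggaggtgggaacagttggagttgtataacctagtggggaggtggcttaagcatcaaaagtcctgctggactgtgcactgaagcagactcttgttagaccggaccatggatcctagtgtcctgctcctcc
Cyp2c29: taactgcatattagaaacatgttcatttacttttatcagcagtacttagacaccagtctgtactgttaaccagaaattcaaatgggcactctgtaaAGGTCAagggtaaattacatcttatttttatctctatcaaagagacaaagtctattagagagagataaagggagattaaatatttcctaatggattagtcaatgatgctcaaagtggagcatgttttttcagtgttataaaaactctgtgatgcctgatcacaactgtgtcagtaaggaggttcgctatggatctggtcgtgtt

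The Cyp2b10 window held no such hexamer. The Cyp2b9 window held AGGTCA at position -138 from the start site and the Cyp2c29 window at -154. Of all 32851 windows in the table, 27.7% held at least 1 of these hexamers, and 0.0274% held a pair of them 4 bases apart in the same direction. Of the 12 genes higher in KO, 9 had a window; 2 of them held a hexamer and 0 held the pair. The Cyp2b10 and Cyp2b9 windows were identical at 72.9% of aligned positions. The enhancer known to answer phenobarbital lies further upstream of Cyp2b10 than these bases reach.

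Whether the knockout worked was read from the targeted gene. Pepd (ENSMUSG00000063931; chromosome 7, 34912379 to 35044708, plus strand, GRCm38) had 2.15 to 3.16 CPM in KO 1 to 7 (median 2.43) and 0 reads in KO 8. The HET libraries 1 to 5 had 28.4, 18.3, 24.0, 29.1 and 25.9 CPM. All 8 KO libraries lay below every HET library, and WT libraries lay between 32.3 and 46.9 CPM. The log2 fold change, KO over HET, was -3.28 ± 0.14 (SE), with an adjusted p of 2.7e-16 by edgeR's quasi-likelihood test. KO 1 to 7 and all HET libraries matched their labels in this gene; KO 8 is too shallow to tell, since 1 read there is near the HET level.

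Of 11595 genes tested, 33 (0.285%) passed an adjusted p of 0.05 in that test, 12 higher (0.103%) and 21 lower (0.181%) in KO. All 33 are protein-coding. The median log2 fold change of all genes was 0, and 1547 genes (13.3%) had an unadjusted p under 0.05. Without KO 8, 25 of 11611 genes passed (0.215%; 8 higher, 0.0689%, and 17 lower, 0.146%), 24 of them among the 33; the adjusted p of the other 9 was 0.0524 to 0.0599. The count rests on single libraries: it was 8 without HET 1, 14 without HET 4, 15 without each of KO 4, KO 6 and KO 7, 17 without KO 1, 50 without HET 2 and 69 without KO 2. No gene of the 33 changed direction in any of these fits. Pepd, Cyp2b10, Serpinb8, Cyp2c29, Olfm3 and P2rx3 passed in all 13 fits that leave out 1 library.

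KO 1 to 7 lay apart from every HET library in 21 of the 33 genes, against 143 of all 11595 (1.23%; 0.578% above and 0.655% below). With KO 8 counted, all 8 KO libraries lay above every HET library in 7 genes (all genes, 0.276%) and below it in 11 (all genes, 0.535%). KO 8 had 0 reads in 17 of the 33 genes, so that its place below HET in a gene of low level carries little information.

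Cyp2b10, Cyp2c29, Cyp2d40 and the carboxylesterase Ces2c were among the genes that rose in KO; Cyp2d40 is in none of the gene lists described below, and the conjugating enzyme Gsta4 fell. Cyp2b10 (chromosome 7, 25897620 to 25926624, plus strand) had 21.5 to 69.2 CPM in KO 1 to 7 (median 60.7) and 2 reads in KO 8. HET libraries 1 to 5 had 4.997, 0, 0, 1.52 and 0.495 CPM. The groups did not overlap, and KO 5 stood lowest among the KO libraries. The log2 fold change was 4.90 ± 0.51 (adjusted p = 1.1e-06), and it stayed between 4.54 and 6.24 when each library was left out. WT libraries had 0 to 3.10 CPM, near the HET level.

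Cyp2c29 (chromosome 19), an abundant P450 of liver, had 2409 to 3665 CPM in KO 1 to 7 (median 2766) and 126 reads in KO 8. In HET libraries 1 to 5 it had 957, 580, 255, 375 and 652 CPM. All 8 KO libraries lay more than 2-fold above the highest HET library, and WT libraries lay at 315 to 980 CPM. The log2 fold change was 2.37 ± 0.32 (adjusted p = 1.1e-04).

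Cyp2d40 (chromosome 15) had 121 to 326 CPM in KO 1 to 7 (median 189) and 7 reads in KO 8. HET libraries 1 to 5 had 98.2, 101, 65.0, 70.2 and 115 CPM. The groups did not overlap, though the lowest KO libraries were close to the highest HET library; the log2 fold change was 1.02 ± 0.21 (adjusted p = 0.030). Ces2c (chromosome 8) had 37.1 to 126 CPM in KO 1 to 7 (median 70.7) and 2 reads in KO 8, and HET libraries 1 to 5 had 24.4, 32.7, 12.9, 35.8 and 34.0 CPM. Its groups did not overlap either, with a log2 fold change of 1.37 ± 0.30 (adjusted p = 0.044). Cyp2d40 missed the threshold without each of HET 1, HET 3, HET 4 and KO 4 to KO 7, and Ces2c without each of HET 1, HET 3, HET 4, KO 1, KO 4 and KO 6 to KO 8. Their highest adjusted p in these fits were 0.112 and 0.104.

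**Figure D2:**
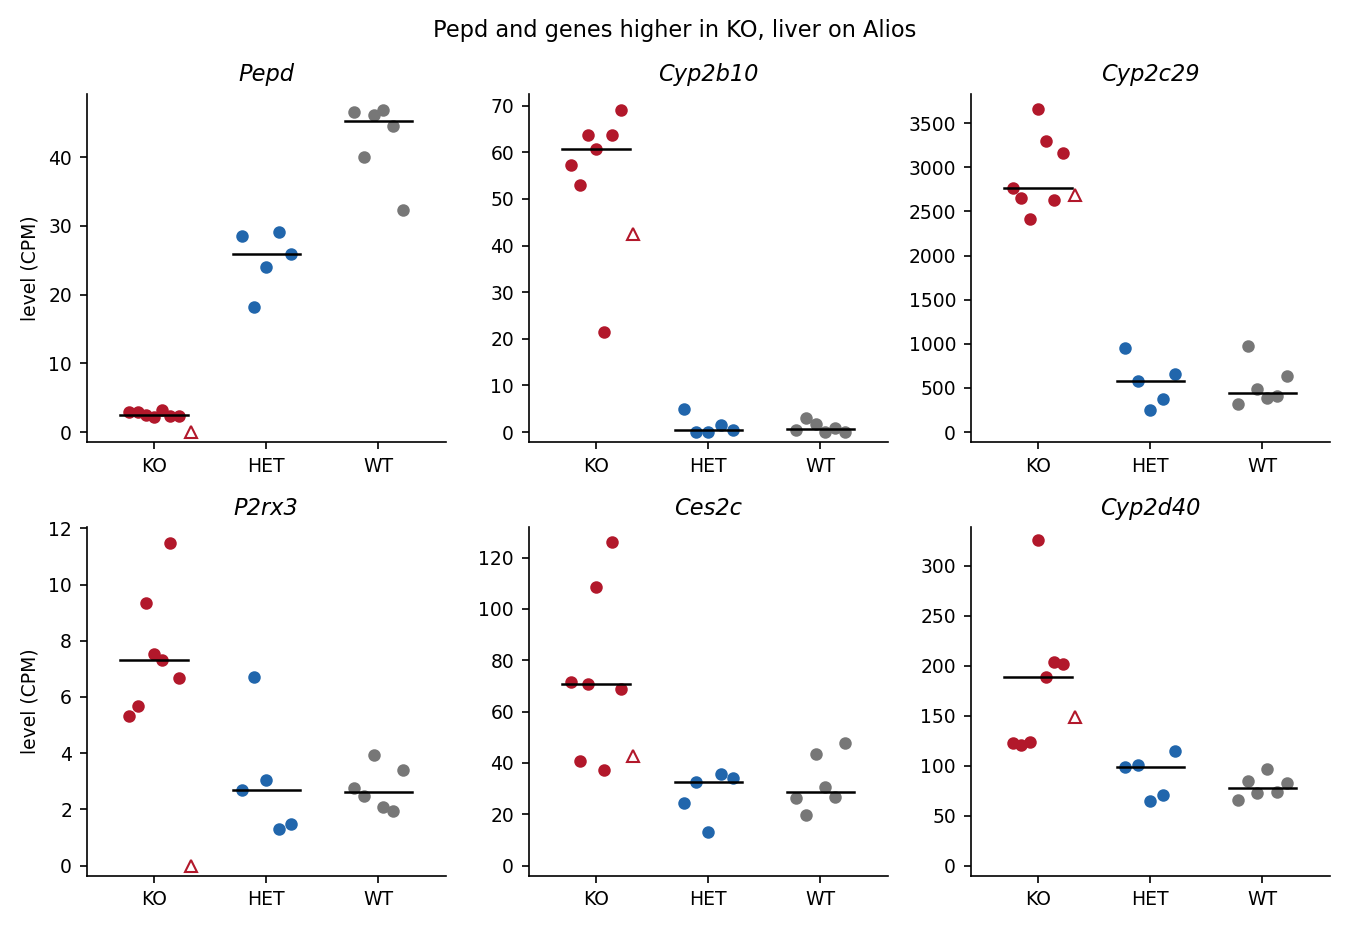
Level (CPM) in each liver library on Alios of Pepd and 5 genes higher in KO, by genotype (KO, HET, WT); filled points are libraries, lines are medians without KO 8, and the open triangle is KO 8. In Cyp2b10 and Cyp2c29 every KO library, lowest 21.5 and 2409 CPM, lies above every HET library, highest 4.997 and 957 CPM.

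No relative of these genes in the P450 lists passed. Of 13 Cyp2c genes tested, 1 passed, 10 had a positive log2 fold change, and the median was 0.43 (all genes, 0); 7 had an unadjusted p under 0.05, against 13.3% of all genes. Cyp2c55 had 9.01 to 16.7 CPM in KO 1 to 7 and 1.92 to 5.70 CPM in HET, without overlap, at a log2 fold change of 1.48 ± 0.35 (adjusted p = 0.062). Cyp2c54 had 166 to 338 CPM in KO 1 to 7 and 6.08 to 120 CPM in HET (log2 fold change 1.86 ± 0.56, adjusted p = 0.14). Cyp2c50 had 544.7 to 850 CPM in KO 1 to 7 and 50.2 to 395 CPM in HET (log2 fold change 1.29 ± 0.39, adjusted p = 0.14). Reads of near-identical Cyp2c and Cyp2d copies may have been split or lost in the authors' counting, so levels of single members are uncertain.

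Of 3 Cyp2b genes tested, Cyp2b10 rose and neither of the others passed. Cyp2b9 had 0 to 40.1 CPM in KO 1 to 7 and 0.760 to 194 CPM in HET, with an adjusted p of 0.24 at a log2 fold change of -3.21 ± 1.17. HET 1 and HET 4 were alike high in it, at 192 and 194 CPM, and HET 2, HET 3 and HET 5 had 3.84, 0.760 and 16.3 CPM. Cyp2b13 had 0.409 to 3.79 CPM in KO 1 to 7 and 0 to 20.8 CPM in HET (log2 fold change -2.34 ± 0.98, adjusted p = 0.30).

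Of 24 other xenobiotic cytochromes P450, 0 passed and the median log2 fold change was 0.06. Cyp2d9 was closest, with 962 to 1466 CPM in KO 1 to 7 and 271 to 731 CPM in HET (log2 fold change 1.17 ± 0.29, adjusted p = 0.065). Cyp1a2, the caffeine-oxidizing P450, had 251 to 556.01 CPM in KO 1 to 7 and 107 to 270 CPM in HET (1.02 ± 0.26 on the log2 scale, adjusted p = 0.069). Cyp3a11, the main 3a enzyme, ran the other way at a log2 fold change of -0.83 ± 0.38 (adjusted p = 0.35), with 2631 CPM in HET 4.

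Of 13 xenobiotic receptors and partners, 0 passed. Nr1i3 had 17.4 to 38.0 CPM in KO 1 to 7 and 12.5 to 35.2 CPM in HET, which overlap (log2 fold change 0.22 ± 0.37, adjusted p = 0.86). Nr1i2, the pregnane X receptor, differed by -0.16 ± 0.16 (adjusted p = 0.71), and Por, the reductase that feeds electrons to P450s, by 0.49 ± 0.33 (adjusted p = 0.53), both on the log2 scale. Of 29 conjugation enzymes and esterases 1 passed, Ces2c, with a list median of 0.08. Of 22 glutathione and NRF2 genes 1 passed: Gsta4, which conjugates products of lipid peroxidation, had 9.64 to 24.5 CPM in KO 1 to 7, 2 reads in KO 8 and 27.9 to 60.1 CPM in HET (log2 fold change -1.34 ± 0.27, adjusted p = 0.021; at most 0.085 without HET 1, HET 3, HET 4, KO 5 or KO 6).

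Of the remaining genes higher in KO, P2rx3 had the smallest adjusted p. P2rx3 (chromosome 2), an ATP-gated ion channel subunit best known from sensory neurons, had 5.31 to 11.5 CPM in KO 1 to 7 (median 7.32) and 0 reads in KO 8. HET libraries 1 to 5 had 2.69, 6.72, 3.04, 1.30 and 1.49 CPM, so that HET 2 lay within the KO range. The log2 fold change was 1.62 ± 0.28 (adjusted p = 0.0048); Ssrp1 overlaps P2rx3 on the other strand, and the strand option of the counting is not given in the sources used. Hsbp1l1 had 2.77 to 8.65 CPM in KO 1 to 7, 0 reads in KO 8 and 0.760 to 1.98 CPM in HET (1.76 ± 0.38 on the log2 scale, adjusted p = 0.039); it missed the threshold without HET 1, HET 3, HET 4 and each of KO 4 to KO 7.

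Ulk1, the kinase that starts autophagy, had 122 to 160 CPM in KO 1 to 7, 6 reads in KO 8 and 71.2 to 99.9 CPM in HET. All 8 KO libraries lay above every HET library, by a modest 1.54-fold (0.62 ± 0.12 on the log2 scale, adjusted p = 0.015; at most 0.085 without HET 1 or HET 4). Cdpf1, Wdr6, Grina, a membrane protein of the endoplasmic reticulum and Golgi, and Ric8a, a chaperone of G protein alpha subunits, rose by 0.82, 0.65, 0.47 and 0.37 on the log2 scale, with adjusted p of 0.044 to 0.049. Of the 13 fits that leave out 1 library, Cdpf1 passed in those without HET 2, KO 2, KO 7 and KO 8, Wdr6 without HET 5, KO 2 and KO 5, Grina without HET 3, KO 2 and KO 5, and Ric8a without HET 4 and KO 2. Of the 10 other alternatives, Ric8a passed in 1, the filter at a mean of 1 CPM, and missed the threshold with RLE scaling, with DESeq2, without a filter and in the fit of the groups compared alone. Cdpf1, Wdr6 and Grina passed in 4 of these 10 each, and none of them did so without a filter. On the other strand, Dalrd3 overlaps Wdr6, and Bet1l and Sirt3 overlap Ric8a. The 12th gene is a Riken clone.

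Of the genes lower in KO, Serpinb8 (chromosome 1), an intracellular serine protease inhibitor, had the smallest adjusted p after Pepd. It had 2.15 to 6.31 CPM in KO 1 to 7 (median 3.33) and 0 reads in KO 8. HET 1 to HET 5 had 15.6, 9.61, 16.7, 9.99 and 8.42 CPM, all above the highest KO library. The log2 fold change was -1.69 ± 0.21 (adjusted p = 5.1e-05), and WT libraries lay at 6.92 to 10.6 CPM.

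Slc16a5 and Slco1a4, both membrane carriers, also fell. Slc16a5 (chromosome 11), a member of the monocarboxylate transporter family, had 0.918 to 8.32 CPM in KO 1 to 7 (median 2.86) and 0 reads in KO 8. HET libraries 1 to 5 had 18.4, 12.5, 18.3, 27.4 and 19.7 CPM, without overlap (log2 fold change -2.33 ± 0.44, adjusted p = 0.013; 0.060 without HET 4). Slco1a4 (chromosome 6), a hepatic carrier of bile acids and organic anions, had 6.98 to 38.1 CPM in KO 1 to 7 (median 15.5) and 1 read in KO 8. HET 1 to HET 5 had 140, 48.0, 51.3, 73.6 and 66.7 CPM, again above every KO library, with HET 1 far above the rest. Its log2 fold change was -1.90 ± 0.40 (adjusted p = 0.030), and it missed the threshold without each of HET 1, HET 4, KO 1, KO 4, KO 6 and KO 7, with an adjusted p of at most 0.119.

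These 2 were the members called among 22 tested genes of bile acid and organic anion transport, whose median was 0.04. Slc22a27, an organic anion transporter family member, had 8.48 to 14.7 CPM in KO 1 to 7 and 15.4 to 36.5 CPM in HET (adjusted p = 0.072), and Slc10a1, the main bile acid uptake carrier, had 734 to 1326 CPM in KO 1 to 7 and 413 to 740 CPM in HET (adjusted p = 0.27). Aqp4, a water channel, had 2.69 to 13.9 CPM in KO 1 to 7, 0 reads in KO 8 and 9.61 to 36.9 CPM in HET (log2 fold change -1.75 ± 0.34, adjusted p = 0.014; 0.082 without HET 1). Slc10a2, the sodium-dependent bile acid carrier, is in none of the gene lists, so the count above leaves it out. It was singled out after its values were seen. It had 28.5 to 43.3 CPM in KO 1 to 7, 2 reads in KO 8 and 56.0 to 87.5 CPM in HET, without overlap. Its log2 fold change was -1.05 ± 0.20 (adjusted p = 0.014), and it missed the threshold without HET 1 and without HET 3.

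**Figure D3:**
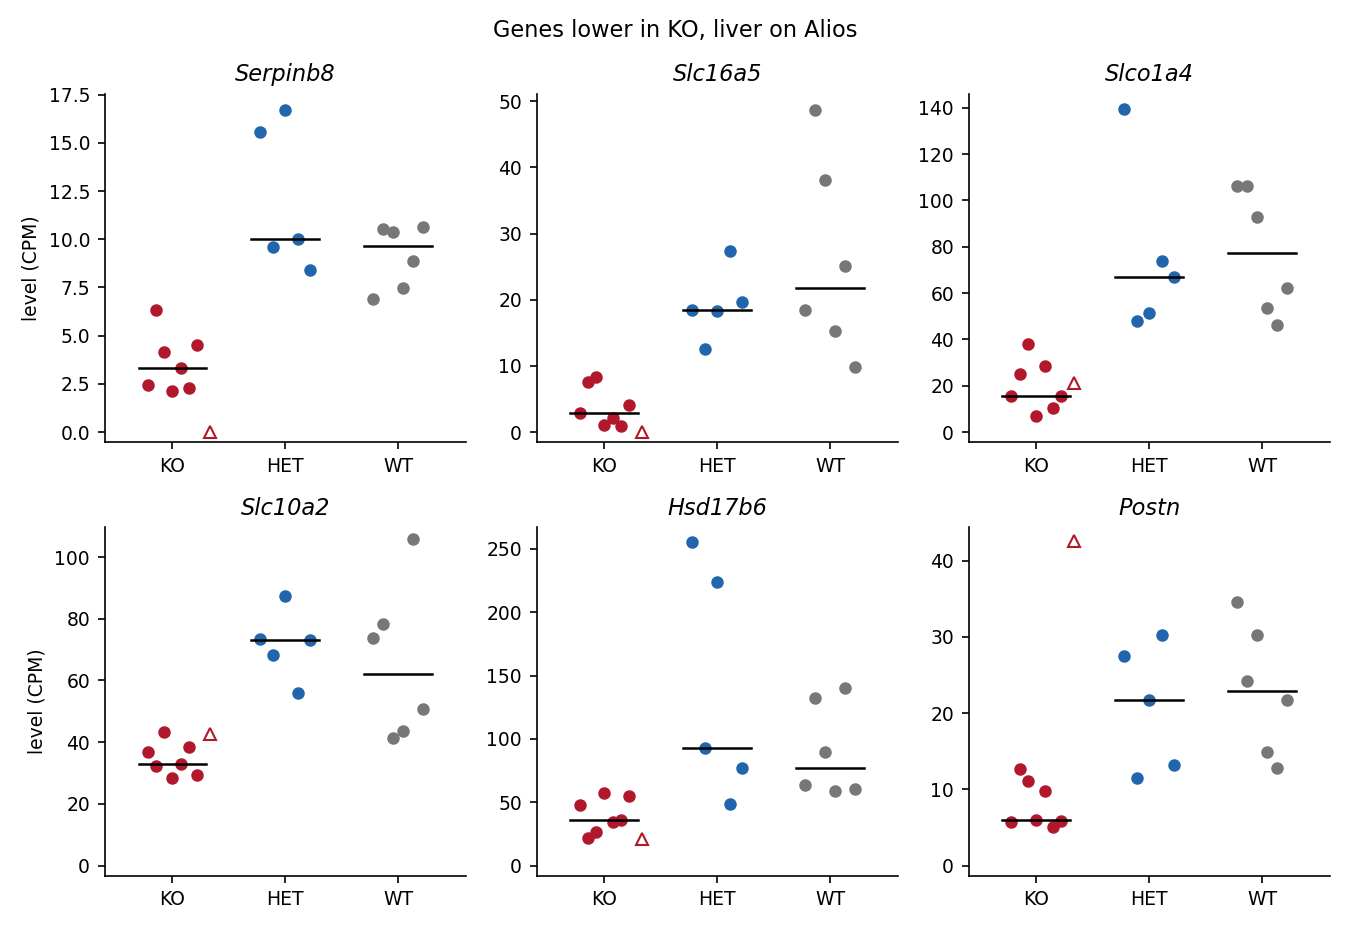
Level (CPM) in each liver library on Alios of 6 genes lower in KO, by genotype (KO, HET, WT); filled points are libraries, lines are medians without KO 8, and the open triangle is KO 8. The KO points of Serpinb8, at most 6.31 CPM, and of Slc16a5, at most 8.32 CPM, lie below every HET point; 2 reads place KO 8 high in Postn.

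Osbpl3 and Hsd17b6 fell as well. Osbpl3, an oxysterol-binding protein relative, had 0 to 21.1 CPM in KO 1 to 7, 1 read in KO 8 and 15.4 to 72.8 CPM in HET (log2 fold change -2.27 ± 0.51, adjusted p = 0.047). It was the single member called among 23 genes of cholesterol synthesis and uptake, of which 18 had a positive log2 fold change, so its direction is not that of its list. Hsd17b6, a steroid and retinol dehydrogenase, had 22.1 to 56.9 CPM in KO 1 to 7, 1 read in KO 8 and 48.4 to 256 CPM in HET (log2 fold change -1.83 ± 0.41, adjusted p = 0.047). Its HET libraries were spread widely, HET 1 and HET 3 above 220 CPM and HET 4 below 50. Of the 13 fits that leave out 1 library, Osbpl3 passed in those without HET 2, HET 5, KO 2 and KO 3, and Hsd17b6 in those without HET 2, HET 4 and HET 5. Osbpl3 passed in 4 of the 10 other alternatives and missed the threshold with DESeq2 (with and without KO 8) and in the fit of the groups compared alone.

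Rad51b, a DNA repair gene, fell by 2.33 ± 0.52 on the log2 scale (adjusted p = 0.047), but the groups overlapped: KO 1 to 7 ran from 3.76 to 18.7 CPM and the HET libraries from 3.84 CPM (HET 2) to 122 CPM (HET 4). Defb1, a beta-defensin, fell by 2.11 ± 0.44 (adjusted p = 0.029), with 0.590 to 3.81 CPM in KO 1 to 7 and 1.92 to 15.4 CPM in HET. Ncam2, a neural cell adhesion molecule, fell by 1.29 ± 0.24 (adjusted p = 0.013), with 1.07 to 4.59 CPM in KO 1 to 7 and 4.13 to 9.91 CPM in HET. Olfm3, Plxna2, Nt5e, Ldlrad3, Samd9l and Arhgap18 also fell, by 0.67 to 1.24 on the log2 scale, and were named after their values were seen. Olfm3 had the smallest adjusted p of these (0.0043), with 4.59 to 7.62 CPM in KO 1 to 7 and 10.6 to 14.6 CPM in HET, without overlap. With 1 library left out, Rad51b passed without HET 2, HET 3, HET 5, KO 2 and KO 3, and Defb1 without HET 2, HET 3, HET 5, KO 2, KO 3 and KO 8. Ncam2 missed the threshold without HET 1, and Plxna2 without HET 3. Predicted genes and a Riken clone overlap Plxna2 on its own strand. Olfm3 passed in all 13 of these fits, Ldlrad3 in 8, Arhgap18 in 6, and Nt5e and Samd9l in 5 each, with adjusted p of at most 0.107, 0.116, 0.194 and 0.154 for Ldlrad3, Arhgap18, Nt5e and Samd9l.

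The collagen side of prolidase biology was read from 34 genes of collagens and matrix. Postn, a matrix protein made by fibroblast-like cells, was the 1 member that passed. Of the 34, 31 had a negative log2 fold change, with a median of -0.46 (all genes, 0). An unadjusted p under 0.05 by edgeR was seen in 17, against 13.3% of all genes. Without HET 4 the median was -0.25, 6 had such a p, and 0 passed. On HFD, 33 genes of the list were tested, at a median of -0.56. Of these, 10 passed as lower and 0 as higher in KO (all genes on HFD, 1.33% lower). Postn had 5.05 to 12.6 CPM in KO 1 to 7, 2 reads in KO 8 and 11.5 to 30.2 CPM in HET (log2 fold change -1.37 ± 0.26, adjusted p = 0.014), with KO 2 above the lowest HET library. It missed the threshold without HET 1, HET 4 and KO 7, at adjusted p of at most 0.085.

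Col14a1 had 40.4 to 60.3 CPM in KO 1 to 7 and 61.1 to 113 CPM in HET, without overlap (adjusted p = 0.095). Col1a1, the main fibrillar collagen chain, had 1.33 to 7.28 CPM in KO 1 to 7 and 3.65 to 16.1 CPM in HET (adjusted p = 0.25), the highest being HET 4. Col15a1 ran the other way, with 15.8 to 37.2 CPM in KO 1 to 7 and 9.61 to 26.1 CPM in HET (log2 fold change 0.66 ± 0.25, adjusted p = 0.26). Summed markers of hepatic stellate cells, the collagen-making cells of liver, were 461 to 641 CPM in KO 1 to 7 and 494 to 763 CPM in HET, and 0 of the 13 passed; their part in the result was not tested.

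Of 17 matrix proteases and inhibitors tested, Adamts1, a secreted metalloprotease, passed (9.67 to 21.5 CPM in KO 1 to 7, 1 read in KO 8, 13.4 to 39.5 CPM in HET; log2 fold change -0.9997 ± 0.22, adjusted p = 0.044). Of the 13 fits that leave out 1 library it passed in 4, those without HET 2, HET 5, KO 2 and KO 3. Mmp13, a collagenase, had 0 to 0.409 CPM in KO 1 to 7 and 0 to 6.08 CPM in HET (adjusted p = 0.057). Of 10 proline peptidases, none but Pepd passed. Dpp4 had 127 to 188 CPM in KO 1 to 7 and 166 to 222 CPM in HET (-0.14 ± 0.12 on the log2 scale, adjusted p = 0.68), and Prep 29.4 to 40.3 CPM in KO 1 to 7 and 28.0 to 38.0 CPM in HET (0.03 ± 0.10, adjusted p = 1). Fap stayed under the filter, at most 1.26 CPM in KO 1 to 7 and 2.28 CPM in HET. Of 8 genes of proline synthesis and breakdown 0 passed; Prodh, the proline oxidase, had 31.3 to 49.1 CPM in KO 1 to 7 and 12.9 to 36.1 CPM in HET (adjusted p = 0.17).

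**Figure D4:**
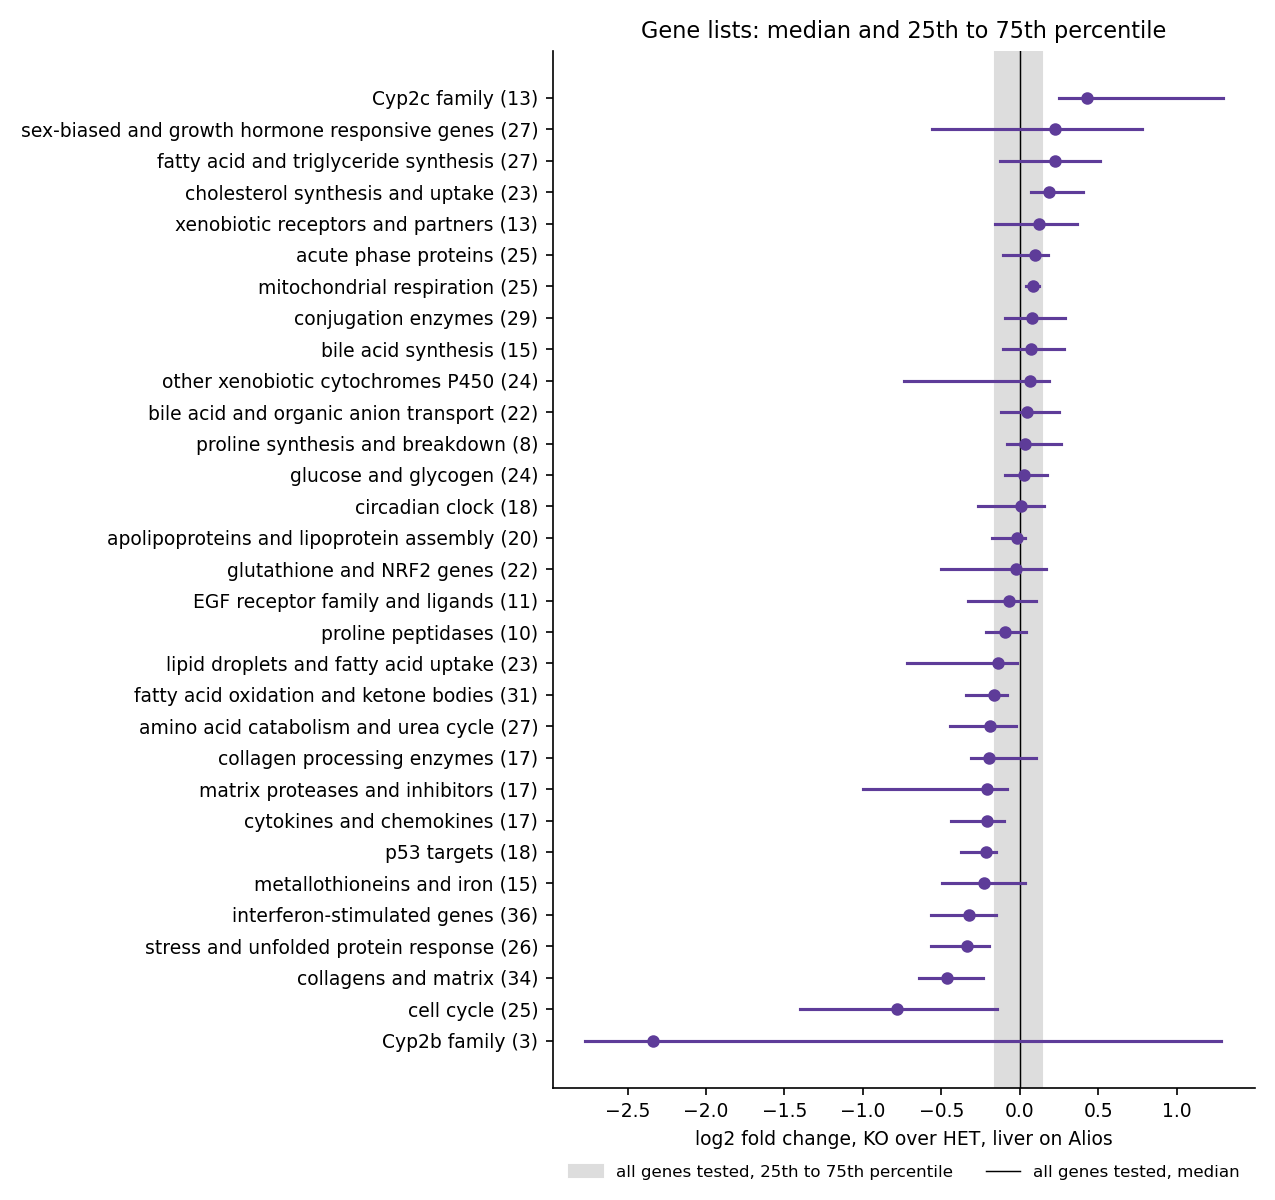
Median (point) and 25th to 75th percentile (line) of the log2 fold change, KO over HET on Alios, in each of 31 gene lists, with the number of members tested in brackets; the grey band and line are the same for all genes tested. Collagens and matrix lie at -0.46 and the Cyp2c family at 0.43; each list is a description without a test.

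Other lists leaned one way with 0 members that passed. These counts cover list members alone, and Samd9l, which passed as lower in KO, is in none of the lists. Of 36 interferon-stimulated genes 32 were negative (median -0.33; -0.16 without HET 3), with Rsad2 at 2.69 to 23.0 CPM in KO 1 to 7 and 15.2 to 34.6 CPM in HET (adjusted p = 0.13). Of 25 cell cycle genes 20 were negative (median -0.79; -0.39 without HET 3), with Mki67 at 0.918 to 5.50 CPM in KO 1 to 7 and 1.92 to 31.6 CPM in HET (adjusted p = 0.16). Of 26 genes of stress and the unfolded protein response 25 were negative (median -0.34; -0.19 without HET 1), with the chaperone Hspa5 at 652 to 814 CPM in KO 1 to 7 and 731 to 1554 CPM in HET (adjusted p = 0.29). On HFD the stress list had a median of 0.25 and 3 members higher in KO (all genes on HFD, 1.06% higher and 1.33% lower). There the interferon list lay at -0.23, with 3 members lower, and the cell cycle list at 0.06, with 0 that passed. The lists were not compared between diets by a test.

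All 8 markers of lipid-associated macrophages were negative and 0 passed, at a median of -1.47, or -0.65 without HET 4. The 6 tested B and plasma cell markers were positive and 0 passed (median 1.01; 0.70 without KO 2). Ighm had 26.3 to 186 CPM in KO 1 to 7, highest in KO 2, and 15.6 to 38.7 CPM in HET (adjusted p = 0.14). On HFD the macrophage set lay at a median of -0.91, with 1 of 8 lower in KO (all genes, 1.33%). The B and plasma cell set lay at 1.75 there, with 0 of 5 that passed. The 10 tested skeletal muscle markers had a median of 7.12, or 0.06 without KO 2, and 0 passed. Fatty acid oxidation, lipogenesis, glucose, bile acid synthesis, acute phase and clock lists held 0 genes that passed, with medians between -0.16 and 0.22, and between -0.22 and 0.33 when each library was left out. Fatty acid oxidation leaned too, with 25 of 31 negative. So did mitochondrial respiration (23 of 25 positive, median 0.08) and amino acid catabolism (21 of 27 negative, -0.19). Lipid droplets and fatty acid uptake had 17 of 23 negative (-0.14). None of these lists held a gene that passed. Acute phase proteins turned with 1 library: their median was 0.09, with 14 of 25 positive, and -0.20, with 20 of 25 negative, without KO 6. Their summed level was 51701 CPM in KO 6, against 21816 to 33032 CPM in the others of KO 1 to 7 and 22957 to 43519 CPM in HET.

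Position relative to the targeted gene was checked because Pepd and Cyp2b10 share chromosome 7. Of 864 tested genes of that chromosome 3 passed, Pepd, Cyp2b10 and Ric8a. Within 5 Mb of Pepd 65 other genes were tested, and 0 passed by edgeR (8 had an unadjusted p under 0.05), at a median of 0.04. Cyp2b10 lies outside that window, so this count does not cover its surroundings. The 33 genes lay on 16 chromosomes.

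The mice on HFD, which the Alios comparison does not use, gave the same genotype contrast again. There 264 of 11064 genes passed (2.39%; 1.06% higher and 1.33% lower in KO). Pepd had 0.870 to 2.81 CPM in HFD KO and 15.1 to 35.4 CPM in 10 of the 11 HFD HET libraries; the library labelled HET 8 had 1.22 CPM, within the KO range, so that its genotype label is in doubt. It counts as HET in the HFD values below unless they are given without it. Without it 325 of 11111 genes passed (2.93%; 1.31% higher and 1.62% lower in KO). Of the 33 genes, 32 were tested on HFD, 29 had the same sign (all genes tested in both, 61.7%), and 13 passed there in the same direction. These 13 are 39.4% of the Alios calls and 4.92% of the HFD calls, or 4% without HET 8: Pepd, Cyp2b10, Cyp2c29, P2rx3, Ulk1, Slco1a4, Hsd17b6, Osbpl3, Aqp4, Postn, Rad51b, Defb1 and Samd9l.

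Cyp2b10 had 20.6 to 164 CPM in HFD KO and 0 to 3.94 CPM in the 10 other HFD HET libraries, and 174 CPM in the library labelled HET 8. Its log2 fold change on HFD was 2.72 ± 0.64 (adjusted p = 0.013), or 5.40 ± 0.45 without that library (adjusted p = 7.4e-12). Cyp2c29 had 1525 to 4703 CPM in HFD KO and 274 to 1019 CPM in the 10 HFD HET libraries, and 3933 CPM in that library (log2 fold change 1.78 ± 0.34, adjusted p = 0.0027; 2.40 ± 0.27 without that library, adjusted p = 4.7e-08). P2rx3 had 4.35 to 6.87 CPM in HFD KO and 0 to 4.06 CPM in the 10 HFD HET libraries, and 9.14 CPM in the library labelled HET 8. Its adjusted p by edgeR was 0.0071, or 2.1e-04 without that library. All 9 HFD KO libraries lay above those 10 HET libraries in each of these 3 genes. Cyp2c55, which missed the threshold on Alios, passed on HFD (log2 fold change 1.73, adjusted p = 0.0070).

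In the other direction, all 264 genes called on HFD were tested on Alios. Of these, 219 had the same sign there (all genes tested in both, 61.7%). The same sign with an unadjusted p under 0.05 by edgeR was seen in 92. Over all genes on Alios, 13.3% had such a p in either direction. Serpinb8 and Slc16a5 differed less clearly on HFD, at -0.70 ± 0.23 and -0.71 ± 0.36 on the log2 scale (adjusted p = 0.088 and 0.35). The difference of their effects between the diets did not pass either (adjusted p = 0.53 and 0.63).

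**Figure D5:**
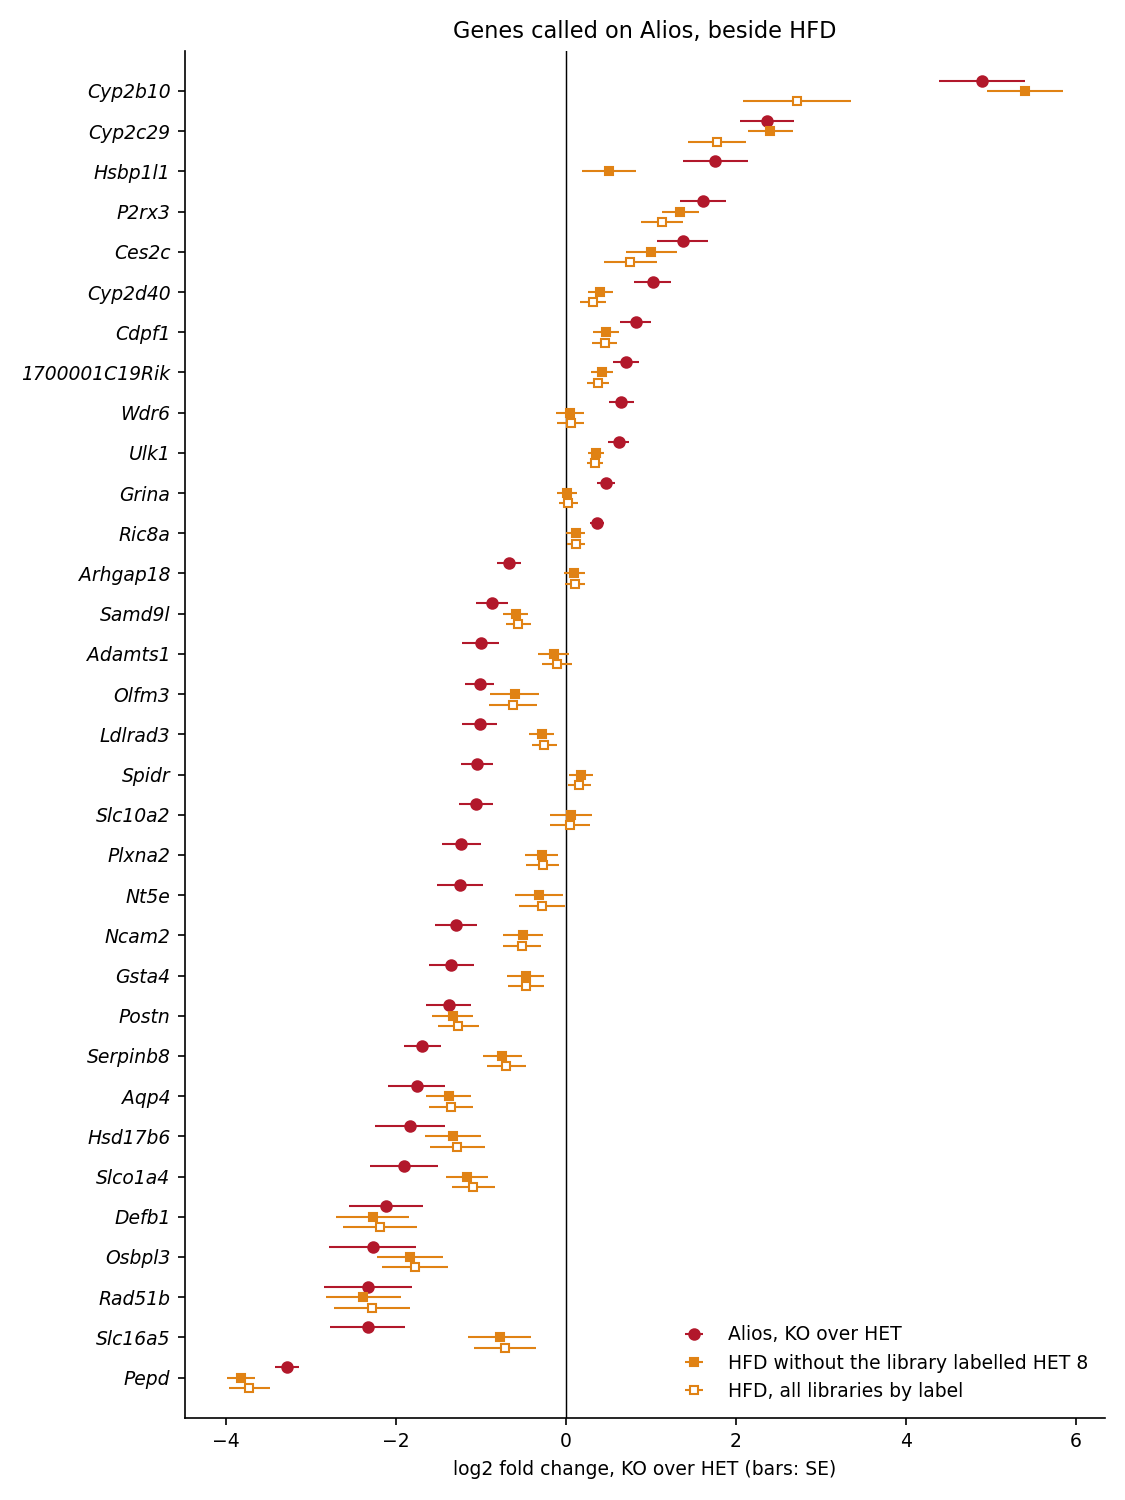
Log2 fold change, KO over HET, of the 33 genes called on Alios (circles), beside HFD without the library labelled HET 8 (filled squares) and with all 11 libraries labelled HET (open squares); bars are SE. Without that library 30 of 33 genes lie on the same side of 0 on both diets, and Arhgap18, Spidr and Slc10a2 do not; Cyp2b10 lies at 5.40 without it and 2.72 with it.

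The difference of the KO effects itself, Alios minus HFD, passed in 1 of 12128 genes (0.00825%), Spidr, a scaffold of DNA repair by recombination. Its difference was -1.20 ± 0.22 on the log2 scale (adjusted p = 0.014), and 779 genes had an unadjusted p under 0.05; without Alios HET 1 it missed the threshold and 0 genes passed. Without the HFD library labelled HET 8, Spidr was again the 1 gene that passed, of 12142 (0.00824%), at -1.22 ± 0.23 (adjusted p = 0.014). On Alios, Spidr had 3.22 to 5.51 CPM in KO 1 to 7, 0 reads in KO 8, and 11.1, 11.5, 10.6, 7.60 and 6.61 CPM in HET libraries 1 to 5. On HFD it had 4.96 to 9.55 CPM in KO and 4.00 to 6.85 CPM in the 10 HET libraries. WT libraries on Alios had 3.29 to 6.57 CPM, near KO and below every Alios HET library; Cebpd overlaps Spidr on the other strand.

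Other groups place these genes further. The WT median on Alios lay nearer the HET than the KO median in 29 of the 33 genes. The exceptions were Spidr, Plxna2, Arhgap18 and Ric8a. The share over all genes was not counted, so the 29 have no background to be read against. The single KO library on Control lay beyond all 4 Control HET libraries, in the direction seen on Alios, in 24 of the 33 genes, against 30.3% of all genes tested. The exceptions were Olfm3, Postn, Slc10a2, Ulk1, Hsbp1l1, Arhgap18, Nt5e, Wdr6 and Ric8a, and 3 of them ran the other way beyond all 4 Control HET libraries. Ulk1 had 95.6 CPM in the Control KO library, against 120 to 144 in Control HET, Postn 18.4 CPM against 10.2 to 15.7, and Arhgap18 24.5 CPM against 18.5 to 23.4. There Cyp2b10 had 60.0 CPM, against 0 to 1.63 in Control HET, and Cyp2c29 had 3497 CPM, against 740 to 942. Slc16a5 had 1.84 CPM in that KO library, against 16.6 to 38.8 in Control HET. With 1 KO mouse on Control this is a description without a test.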

How the data were processed

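Liver RNA of C57BL/6 mice was measured by stranded mRNA sequencing with single-end reads, per the labels' protocols. The authors deposited raw read counts for each Ensembl gene, and the submitters' processing notes name STAR 2.5.1b, featureCounts 1.5 and build GRCm38.p5, without settings. Of 25759 genes 25723 had a symbol in the GENCODE M21 annotation. Groups came from the labels. The members and lists were chosen with earlier results of these data known.

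Counts were tested in R 4.3.3 with edgeR 4.0.16: genes kept by minimum count 10 and total 15, TMM scaling, a quasi-likelihood fit over 29 Control and Alios libraries in 6 groups, Benjamini-Hochberg adjustment and calls at 0.05, two-sided. SE is the size of the log2 fold change divided by the square root of F. The HFD fit held 46 chow and HFD libraries and the difference of effects 75 in 12 groups. Levels are CPM on TMM-scaled sizes. Scripts were tested on simulated data. Depth sets precision: KO 8 resolves no level below 1 read.

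Named genes were Pepd, Prep, Dpp4, Fap and 8 genes named earlier in these data; up to 12 called genes each way with the largest change and at least 1 CPM; up to 3 called members per list; and genes called in the difference. Called genes outside that rule are marked as such. Other uncalled genes given with values, such as Cyp2c54, Cyp2d9, Col14a1, Mki67 and Hspa5, also fall outside it. They are examples that no rule chose. Lists (31, with 15 marker sets) are counted, not tested. Alternatives were RLE size factors, DESeq2 1.42.0, no filter, a mean of 1 CPM and other sets of groups. Others were a block by replicate number, a covariate for a mouse number above 510, and each library left out. Libraries of the same replicate number showed no sign of pairing, which does not exclude it. No pair among KO 1 to 7 or among the HET libraries on Alios agreed within sampling noise (KO 8 was in no pair): over 31 pairs the ratio of observed to sampling spread was at least 3.85. P-values weigh the difference between groups against the spread between mice within groups, estimated over all groups of each fit. Gonadal adipose tissue was not used here.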

Additional observations from a re-analysis of the deposited data

Results flagged for a closer look

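Of 58 groups of named genes looked at, 10 held a library far from the others, and chance marks about 1 group in 20. In KO, 7 of these were KO 8, where 1 read is 21.3 CPM and 2 reads are 42.5: Pepd, Cdpf1 and Spidr lay lowest at 0 CPM and Ric8a lowest at 21.3 CPM, and Postn, Wdr6 and Gsta4 lay highest at 42.5 CPM. Cyp2d40 was highest in KO 4 at 326 CPM. HET 1 was highest in Slco1a4 at 140 CPM and in Dpp4 at 222 CPM. Spidr had a KO effect that differed between the diets by -1.20 on the log2 scale, Alios minus HFD, in a test of the difference itself.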

How the results depend on the processing

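The 33 Alios calls became 62 in a fit of the 2 groups compared and 81 with DESeq2 without KO 8. They became 19 with a covariate for a mouse number above 510, and 8 to 69 when each library was left out. With the replicate number as a block there were 11 on Alios, 104 on HFD, 2 in the difference and 4 among list members. Same-number libraries correlated at -0.148 to 0.017, which shows no sign of pairing but cannot exclude it. The 264 HFD calls became 455 with 2 groups. The single gene of the difference became 12 with DESeq2 and 9 with 4 groups, and 0 to 2 without single libraries. The 10 called list members became 17 with DESeq2 without KO 8, 6 with the mouse number covariate and 3 to 16 without single libraries. Prep ran from -0.036 without HET 4 to 0.095 without HET 5 and was -0.0068 without KO 4. No called gene changed sign in the 13 fits without a library or the 10 others; Pepd, Cyp2b10, Serpinb8, Cyp2c29 and P2rx3 passed in all of them, and 9 of the 33 in all 10 others. The cause of these moves was not tested. KO 8 has too few counts to show a level of most called genes.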
